A study of Mus musculus with 9 samples.

Results

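The 42 genes described here code for the enzymes of the tricarboxylic acid (TCA) cycle (21 genes), for the uptake and use of glutamine, glutamate and alanine (11), for the mitochondrial carriers that pass the cycle's intermediates and amino acids across the inner membrane (6), and for malic enzymes and phosphoenolpyruvate carboxykinases (4). They were chosen by name, and all 42 were among the 52249 gene entries of the expression table. A gene was tested when its mean over the 9 libraries reached 1 CPM (reads of the gene, scaled to a common total of reads assigned to genes in each library), which 39 of the 42 did. The table holds RNA sequencing of mouse prostate organoids grown from basal cells, the outer epithelial layer of the gland, in 3 groups of 3 libraries. All cells came from male Mpc1 fl/fl mice of a mixed C57BL/6N and C57BL/6J background, and their age is not stated. For vehicle and UK5099, the cells were infected with a lentivirus for red fluorescent protein (RFP), and the UK5099 organoids received 10 µM of that inhibitor of the mitochondrial pyruvate carrier for 1 week. For Mpc1-KO, the virus carried Cre recombinase as well as RFP, which deletes part of Mpc1, a subunit of the carrier, and the organoids received vehicle. Fluorescent cells were sorted, so any change brought by Cre itself goes along with the deletion. The labels do not say whether the 3 libraries of a group came from separate mice or cultures, and p-values therefore measure the spread between these libraries.

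The TCA cycle takes in acetyl-CoA, made from pyruvate in the mitochondrion, and returns reduced cofactors for respiration. When intermediates are drawn off for synthesis, the pool is refilled (anaplerosis) from pyruvate through carboxylation or from glutamine, which is taken up, deaminated to glutamate and turned into α-ketoglutarate by dehydrogenation or by transfer of the amino group to pyruvate or oxaloacetate. Luminal cells of the prostate are known for making and secreting citrate. The comparisons ask which of these genes changed when pyruvate was kept out of the mitochondrion by a drug or by a deletion.

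Depth ran from 16.5 to 28.7 M reads a library. A floor of detection of 3 reads stood for 0.104 to 0.182 CPM. In replicates 1, 2 and 3, Mpc1 was at 2.36, 2.41 and 2.38 CPM in vehicle, 2.04, 2.47 and 2.30 CPM with UK5099 and 0.522, 0.533 and 0.598 CPM in Mpc1-KO. It was lower in each Mpc1-KO library, by a log2 fold change of -1.46 ± 0.14 (SE; limma adjusted p = 0.00067). At this low level the 0.5 CPM added before taking logs understates the drop, and the ratio of the group means was 0.231. UK5099 library 1 stood apart from the other 2 of its group. Over all 12396 genes tested, its median lay 0.14 log2 units above the vehicle mean, against -0.01 and -0.02 in UK5099 libraries 2 and 3. For the 39 genes tested, calls of UK5099 against vehicle that turned on it are given also without it. So are values that it moved by over 1.5 times. Neighbouring genes of the same pathways, further below, are given with all 9 libraries only. The organoids were grown from epithelial cells, and both epithelial markers were high: Cdh1 stood at 2295 to 2429 CPM in vehicle, 2075 to 2256 CPM under UK5099 and 2224 to 2279 CPM in Mpc1-KO, and Epcam at 2941 to 3204, 1517 to 1776 and 2985 to 3098 CPM. In sum, the 3 basal markers (Krt5, Krt14, Trp63) stood at 2948 to 3251 CPM in vehicle libraries, 10152 to 12167 CPM under UK5099 and 3277 to 3584 CPM in Mpc1-KO, where Krt5 was above every vehicle library (1986 to 2233 against 1557 to 1701 CPM; 0.36, limma adjusted p = 0.021) and Krt14 below (1045 to 1127 against 1181 to 1369 CPM; -0.20, adjusted p = 0.24). The 2 luminal markers (Krt8, Krt18) summed to 1977 to 2245, 1329 to 1584 and 1959.9 to 2074 CPM. Krt8 in Mpc1-KO lay below every vehicle library (620 to 675 against 704 to 884 CPM). Krt18 overlapped with vehicle there (1340 to 1398 against 1273 to 1361 CPM). Neither passed in Mpc1-KO (log2 fold changes -0.22 and 0.07, limma adjusted p = 0.26 and 0.54). The 4 mesenchymal markers summed to 134 to 193 CPM in vehicle, 8.13 to 13.3 CPM under UK5099 and 40.9 to 57.3 CPM in Mpc1-KO. Most of it was Vim (129 to 188, 5.94 to 10.3 and 37.1 to 53.1 CPM), and Col1a2 was at 0 in all 9 libraries. Pdgfrb, too low to be tested, went the other way with UK5099 (0.0365 to 0.136 CPM in vehicle, 0.303 to 0.642 CPM with UK5099). Immune markers (3) summed to 35.8 to 49.1, 11.7 to 29.8 and 45.3 to 52.4 CPM, nearly all of it Cd68, and the 2 endothelial markers to at most 1.00 CPM with Cdh5 at 0. The part of the basal, luminal and mesenchymal shifts, and of the lower Cd68 under UK5099, in the results below was not tested. In bulk RNA, fewer cells of a type and less RNA per cell cannot be told apart.

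With UK5099, most of the genes that changed were higher. Of the 39 genes tested, 19 rose, 3 fell and 17 did not pass (limma on log2(CPM + 0.5), Benjamini-Hochberg adjusted over all genes, threshold 0.05). Across all genes tested, 19.9% rose and 18.2% fell in that comparison, 38.1% in either direction. The median log2 fold change of the 39 was 0.28, beside 0.04 over all genes, and 30 of the 39 were above 0. The 3 UK5099 libraries lay wholly above the 3 vehicle libraries for 20 of the 39 and wholly below for 3, where 24.4% and 21.3% of all genes did so. Of the 22 calls, 13 passed in each of 18 alternative settings, namely rises of Cs, Idh1, Sucla2, Sdhb, Mdh1, Mdh2, Got2, Gpt2, Slc25a12 and Me2, and falls of Idh2, Slc38a1 and Slc7a5. The remaining 9 depended on the setting. How large a share of all called genes passed in all 18 settings was not counted. Without vehicle library 2 or without vehicle library 3, 11 genes rose and 3 fell (35.9%), where 27.7% and 28% of all genes passed, and in each of these fits the cycle genes that rose were Cs, Idh1, Sucla2, Sdhb, Mdh1 and Mdh2. The same 6 cycle genes were among the 10 that rose when the Mpc1-KO libraries were kept out of the fit, with 3 falls, where 14.2% of all genes rose and 28% passed.

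**Figure D1:**
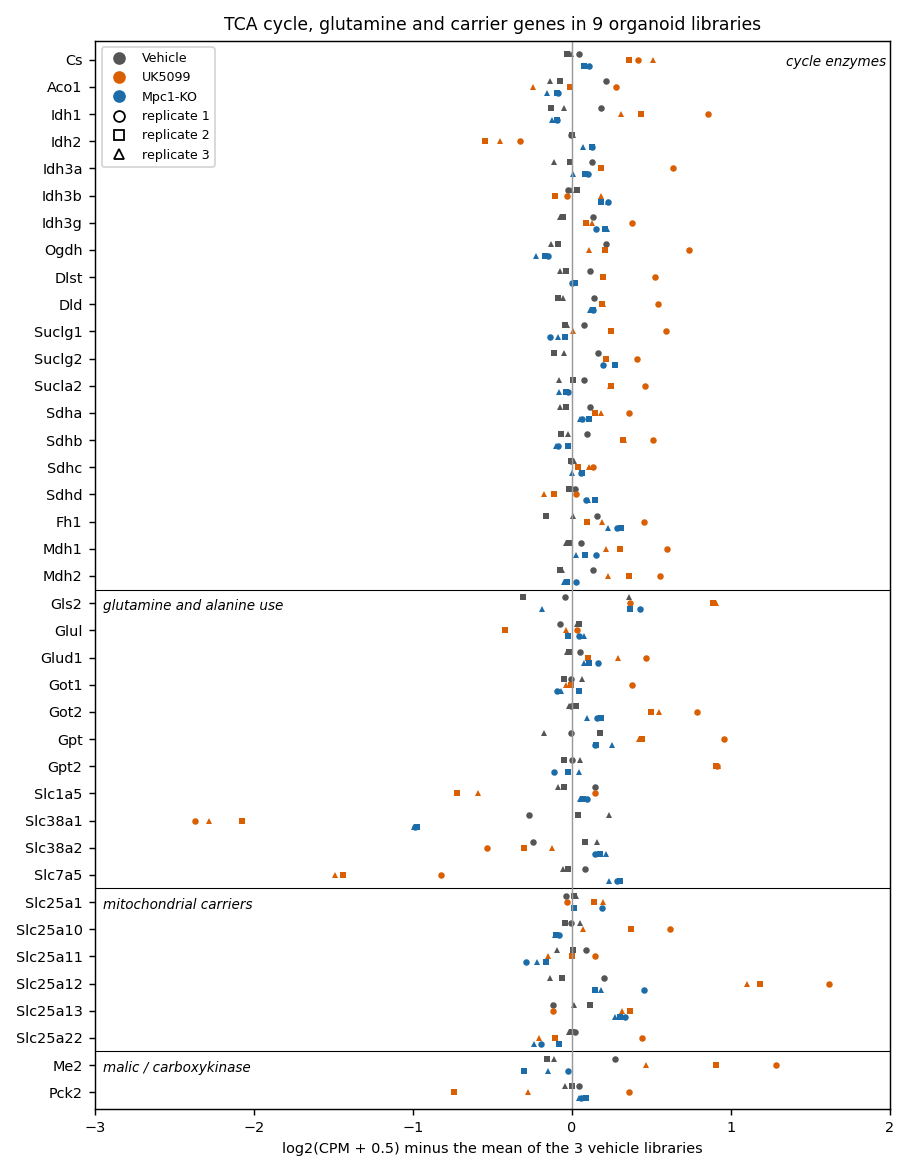
Each row is a gene and each point a library, placed at its log2(CPM + 0.5) minus the mean of the 3 vehicle libraries, with vehicle in grey, UK5099 in orange and Mpc1-KO in blue, and circle, square and triangle for replicates 1, 2 and 3. Orange points lie to the right for most cycle genes, with UK5099 library 1 the highest of its group for 18 of 20, and far to the left for Slc38a1 and Slc7a5, whereas blue points stay close to grey except for Slc38a1.

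Promoter sequence was looked at for genes whose change with UK5099 passed in all 18 settings, and 4 are shown: the carrier gene Slc25a12 and the transaminase genes Gpt2 and Got2, among the largest rises, and Idh2, the cycle enzyme that fell. Each is the 250 bases before the RefSeq start of the gene, 5′ to 3′ on the gene's own strand, on GRCm38.p6, an earlier build than the GRCm39 of the counts. They lie at chr2:71367756-71368005 (minus strand, Slc25a12), chr8:85492326-85492575 (plus, Gpt2), chr8:95888402-95888651 (minus, Got2) and chr7:80115351-80115600 (minus, Idh2). Capitals mark matches, on either strand, to 4 motifs: GCGTG (the core of the aryl hydrocarbon receptor element, which reads CACGC on the other strand), TGATGNAA (the composite element of ATF4, the transcription factor of amino acid shortage), TGACNNNGC (the core of the antioxidant response element) and CACGTG (the E-box), none of which overlapped another in these windows.
Slc25a12: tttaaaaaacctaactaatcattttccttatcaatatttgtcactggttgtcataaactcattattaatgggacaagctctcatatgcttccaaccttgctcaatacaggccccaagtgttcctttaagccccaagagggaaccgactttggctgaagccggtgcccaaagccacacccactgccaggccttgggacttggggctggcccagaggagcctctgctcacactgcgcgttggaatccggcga
Gpt2: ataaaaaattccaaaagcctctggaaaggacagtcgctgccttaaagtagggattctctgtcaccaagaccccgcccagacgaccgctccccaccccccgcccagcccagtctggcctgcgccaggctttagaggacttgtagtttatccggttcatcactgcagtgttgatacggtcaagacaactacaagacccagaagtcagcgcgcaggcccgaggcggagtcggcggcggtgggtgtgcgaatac
Got2: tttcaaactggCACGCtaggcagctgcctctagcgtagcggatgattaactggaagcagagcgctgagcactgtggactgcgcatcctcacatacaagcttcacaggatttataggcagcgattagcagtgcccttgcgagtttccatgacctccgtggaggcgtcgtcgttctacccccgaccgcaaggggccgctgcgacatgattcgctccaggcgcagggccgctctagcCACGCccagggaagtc
Idh2: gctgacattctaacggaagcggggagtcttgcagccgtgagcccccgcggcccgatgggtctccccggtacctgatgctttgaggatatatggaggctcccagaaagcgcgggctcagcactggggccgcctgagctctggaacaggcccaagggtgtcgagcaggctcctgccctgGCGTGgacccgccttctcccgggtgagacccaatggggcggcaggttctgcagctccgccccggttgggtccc
Got2 holds 2 matches to GCGTG and Idh2 holds 1, while the windows of Slc25a12 and Gpt2 hold none of the 4 motifs. RefSeq windows were found for 34 of the 42 genes, all but Idh3a, Sdhc, Gls2, Gpt, Slc1a5, Slc38a1, Slc7a5 and Me2. GCGTG occurred in 18 of the 34 and in 28.2% of all 32851 promoters. Here and for the other motifs, the 34 were counted by gene and the 32851 by single window, so the shares differ in unit. TGATGNAA occurred in Got1, Me3 and Pck2 (3 of 34, and 3.45% of all), TGACNNNGC in 5 of 34 (10.2% of all), and CACGTG in Ogdh, Slc25a1 and Slc25a13 (3 of 34, and 6.02% of all). A match describes these letters only.

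At the entry of the cycle, citrate synthase rose and the next steps split. Of the 20 cycle genes tested, 11 rose with UK5099, 1 fell and 8 did not pass, and their median was 0.29. Calls in either direction made up 60% of them, where 38.1% of all genes passed. Cs, whose product joins acetyl-CoA to oxaloacetate, was at 349.6, 332 and 338 CPM in vehicle, 452, 436 and 485 CPM with UK5099 and 365, 359 and 358 CPM in Mpc1-KO, replicates in the order 1, 2, 3 here and below. Each UK5099 library was above each vehicle library, and the group mean went from 339.8 ± 8.98 to 458 ± 24.7 CPM (SD, n = 3; log2 fold change 0.43 ± 0.05, SE, limma adjusted p = 0.00015). Of the 50-base windows of the Cs transcripts, 4% also occur in another gene, chiefly Csl, which stayed at or below 0.190 CPM. Aco1, the cytosolic aconitase that doubles as an iron-regulatory protein, did not pass (0.01, 95% interval -0.28 to 0.29, and -0.13 without UK5099 library 1).

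The genes of the NADP-linked isocitrate dehydrogenases, Idh1 and Idh2, moved in opposite directions. Idh1, the NADP-linked enzyme of the cytosol, was at 194, 156 and 165 CPM in vehicle, 309, 231 and 212 CPM with UK5099 and 160.0, 160.1 and 156 CPM in Mpc1-KO. Idh2, its mitochondrial counterpart, was at 104, 105 and 105 CPM in vehicle, 83.4, 71.5 and 76.3 CPM with UK5099 and 114, 114 and 109.8 CPM in Mpc1-KO. Idh1 was higher with UK5099 in every library (0.53 ± 0.13, limma adjusted p = 0.0084) and Idh2 lower in every library (-0.44 ± 0.06, adjusted p = 0.00034), and the 3 vehicle libraries had nearly the same Idh2 level. Within a library, the log2 ratio of Idh1 to Idh2 CPM was 0.57 to 0.89 in vehicle, 1.47 to 1.89 with UK5099 and 0.49 to 0.51 in Mpc1-KO, a mean shift of 0.98 with the drug and -0.21 with the deletion, and neither shift was tested. Of the 3 subunits of the NAD-linked enzyme of the cycle itself, the catalytic Idh3a rose (0.33, limma adjusted p = 0.047), whereas Idh3b (0.02, or 0.04 without UK5099 library 1) and Idh3g (0.20, limma adjusted p = 0.10) did not pass. The Idh3a call was lost in the fit of the 6 libraries (adjusted p = 0.10), without vehicle library 2 or 3 (0.12 and 0.16) and without any 1 Mpc1-KO library (0.068 to 0.070). Its log2 fold change was 0.18 without UK5099 library 1 (limma adjusted p = 0.046), and that of Idh3g 0.11.

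Further round the cycle, 2 genes of the α-ketoglutarate dehydrogenase complex and 2 of succinyl-CoA synthetase rose. Dlst, the succinyltransferase core of the complex (0.30, limma adjusted p = 0.022), and Dld, the dihydrolipoamide dehydrogenase it shares with pyruvate dehydrogenase (0.31, limma adjusted p = 0.032), rose, and both lost the call without vehicle library 2 (0.076 and 0.12) or 3 (0.087 and 0.11), Dld also without any 1 Mpc1-KO library (0.051). Without UK5099 library 1 the log2 fold changes were 0.19 for Dlst and 0.19 for Dld, which both passed (limma adjusted p = 0.015 and 0.032). Ogdh, the decarboxylating subunit, did not pass (0.35, limma adjusted p = 0.092), but passed with the replicate number as a block (adjusted p = 0.021). Its log2 fold change was 0.16 without UK5099 library 1 (limma adjusted p = 0.17). Its relative Ogdhl was not tested, with a mean of 0.94 CPM and 8 to 47 reads a library. Sucla2, the ATP-forming β subunit of succinyl-CoA synthetase, was at 57.5, 54.7 and 51.5 CPM in vehicle, 75.3, 64.8 and 64.4 CPM with UK5099 and 53.6, 53.2 and 51.4 CPM in Mpc1-KO. All 3 UK5099 libraries were above vehicle (0.32 ± 0.07, limma adjusted p = 0.0072). Suclg2, the GTP-forming β subunit, rose by 0.28 (limma adjusted p = 0.037, and 0.062 without UK5099 library 1, 0.15 and 0.12 without vehicle library 2 or 3, and 0.058 to 0.061 without any 1 Mpc1-KO library), and 19.1% of its 50-base windows also occur elsewhere, chiefly in the pseudogene Gm15163 (0.209 to 0.533 CPM). Suclg1, the α subunit common to both forms, did not pass (0.28, limma adjusted p = 0.10), and its log2 fold change was 0.13 without UK5099 library 1.

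Of the 4 subunit genes of succinate dehydrogenase, 2 rose and 2 did not pass. Its catalytic flavoprotein Sdha was at 166, 149.8 and 145 CPM in vehicle, 197, 169.8 and 174 CPM with UK5099 and 160.4, 165 and 159 CPM in Mpc1-KO. Its iron-sulfur subunit Sdhb was at 58.5, 52.2 and 53.8 CPM in vehicle, 78.3, 68.5 and 69.0 CPM with UK5099 and 51.6, 54.0 and 51.0 CPM in Mpc1-KO. Both lay above vehicle in every UK5099 library, Sdhb by 0.39 ± 0.07 (limma adjusted p = 0.0020) and Sdha by 0.23 ± 0.07 (adjusted p = 0.027), although the Sdha call was lost without vehicle library 2 (0.096) or 3 (0.11). The membrane anchors Sdhc (0.09, 95% interval -0.02 to 0.20) and Sdhd (-0.09, -0.23 to 0.05) did not pass. Without UK5099 library 1, Sdhd passed as a fall (-0.15, limma adjusted p = 0.032). The log2 ratio of Sdhb to Sdhd CPM went from -0.28 to -0.15 in vehicle libraries to 0.21 to 0.28 with UK5099, and to -0.43 to -0.40 in Mpc1-KO, shifts that were not tested.

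At the closing steps, Fh1, the fumarase gene, did not pass (0.25, limma adjusted p = 0.091) but did so with the replicate block (adjusted p = 0.046), and its log2 fold change was 0.14 without UK5099 library 1 (adjusted p = 0.19). Both malate dehydrogenases rose to about the same extent. Mdh2, the enzyme of the mitochondrion, was at 218, 189 and 190.4 CPM in vehicle, 292, 255 and 233 CPM with UK5099 and 203, 194 and 192 CPM in Mpc1-KO. Its group mean went from 199 ± 16.6 to 260.1 ± 30.1 CPM (log2 fold change 0.38 ± 0.09, limma adjusted p = 0.0062), and cytosolic Mdh1 rose by 0.37 ± 0.09 (adjusted p = 0.0089). The log2 ratio of Mdh2 to Mdh1 CPM, 1.19 to 1.32 in vehicle and 1.20 to 1.30 with UK5099, overlapped between the groups.

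**Figure D2:**
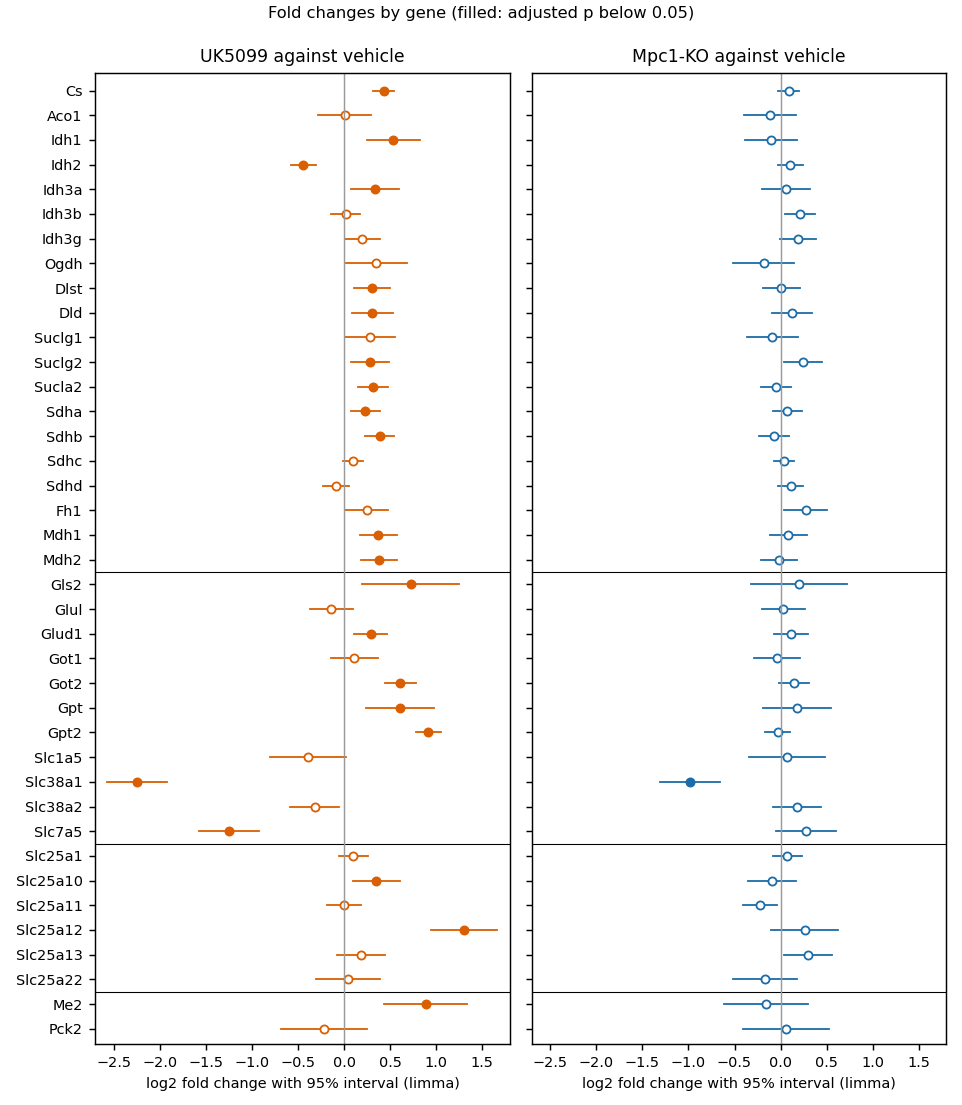
Log2 fold changes against vehicle are shown for the 39 genes tested, UK5099 at left and Mpc1-KO at right, with bars for the 95% interval from limma and filled points where the adjusted p is below 0.05. With UK5099, 19 filled points lie right of 0 and 3 left of it, and with Mpc1-KO only Slc38a1, at -0.99, is filled.

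Genes of glutamine and alanine use went both ways with UK5099. Of the 11, 5 rose, all of them enzymes, 2 fell, both transporters of the plasma membrane, and 4 did not pass (median 0.11). Calls in either direction made up 63.6% of them, where 38.1% of all genes passed. Slc38a1, a sodium-coupled glutamine transporter, had the largest change of the 39 genes and was at 10.6, 13.2 and 15.2 CPM in vehicle, 2.08, 2.67 and 2.24 CPM with UK5099 and 6.23, 6.31 and 6.20 CPM in Mpc1-KO. The 3 groups did not overlap, with vehicle highest and UK5099 lowest, and the UK5099 values rest on 37 to 70 reads a library. Its mean fell from 13.0 ± 2.32 to 2.33 ± 0.300 CPM with UK5099, a log2 fold change of -2.25 ± 0.15 (SE, n = 3; limma adjusted p = 3.2e-06). Slc7a5, the exchanger that brings in leucine and other large neutral amino acids against glutamine, was at 194, 181 and 176 CPM in vehicle, 103, 67.3 and 65.1 CPM with UK5099 and 224, 226 and 216 CPM in Mpc1-KO. All 3 UK5099 libraries were below the lowest vehicle library (-1.25 ± 0.14, limma adjusted p = 0.00011), with library 1 the least lowered.

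The other glutamine transporters were lower in mean but did not pass. Slc38a2, the amino-acid-responsive relative of Slc38a1, was at 605, 759 and 801 CPM in vehicle and 494, 579.9 and 658 CPM with UK5099, groups that overlapped (-0.32, limma adjusted p = 0.056, and 0.010 with the replicate block; -0.21 without UK5099 library 1). Slc1a5, a sodium-dependent exchanger of neutral amino acids, was at 102, 89.4 and 87.0 CPM in vehicle and 103, 55.8 and 61.4 CPM with UK5099 (-0.39, limma adjusted p = 0.12). UK5099 library 1 was at the level of vehicle and the other 2 were well below it. Without that library, Slc1a5 passed as a fall of -0.66 (limma adjusted p = 1.9e-05). The log2 ratio of Slc38a2 to Slc38a1 CPM, which was not tested, went from 5.72 to 5.84 in vehicle libraries to 7.77 to 8.20 with UK5099.

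Both alanine aminotransferases, which exchange the amino group of glutamate with pyruvate, rose. Gpt2, the mitochondrial form, was at 41.5, 40.1 and 43.1 CPM in vehicle, 78.5, 78.2 and 79.2 CPM with UK5099 and 38.4, 40.8 and 42.9 CPM in Mpc1-KO. The UK5099 libraries were nearly alike and stood at 1.89 times the vehicle mean (0.91 ± 0.06, limma adjusted p = 3.6e-06). The cytosolic form, Gpt, was at 4.35, 5.0 and 3.81 CPM in vehicle, 8.94, 6.09 and 6.0 CPM with UK5099 and 4.87, 4.89 and 5.29 CPM in Mpc1-KO. It was higher in each UK5099 library (0.61 ± 0.17, limma adjusted p = 0.016), on 91 to 223 reads a library in the 2 groups, and it no longer passed when vehicle library 3 was left out (adjusted p = 0.070).

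Of the aspartate aminotransferases, only the mitochondrial gene passed. Got2 was at 68.8, 70.5 and 68.2 CPM in vehicle, 119, 98.0 and 101 CPM with UK5099 and 77.2, 78.4 and 73.9 CPM in Mpc1-KO. The vehicle libraries lay close together, and every UK5099 library was well above them (0.61 ± 0.07, limma adjusted p = 0.00015). Of its 50-base windows, 32.3% also occur in other genes, mostly the pseudogene Got2-ps1, which stood at 0.328 to 0.667 CPM, and the split of reads between them is uncertain. Cytosolic Got1 was at 18.8 to 20.3 CPM in vehicle and 18.9 to 25.5 CPM with UK5099 (0.11, limma adjusted p = 0.47), and the log2 ratio of Got2 to Got1 went from 1.75 to 1.91 in vehicle to 2.23 to 2.42 with UK5099 and 1.97 to 2.08 in Mpc1-KO, shifts that were not tested. The log2 fold change of Got1 was -0.02 without UK5099 library 1.

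Of the genes for glutaminase, glutamine synthetase and glutamate dehydrogenase, Glud1 and Gls2 rose and Glul did not pass. Glud1, the glutamate dehydrogenase that yields α-ketoglutarate, was at 153, 145 and 144 CPM in vehicle, 204, 158 and 180.2 CPM with UK5099 and 165, 159 and 155 CPM in Mpc1-KO. It rose by 0.29 ± 0.08 (limma adjusted p = 0.020), a call lost without vehicle library 2 (0.065) or 3 (0.070), and 8.06% of its windows are shared, chiefly with Glud-ps (0.317 to 1.48 CPM). Gls2, the liver-type glutaminase, rose by 0.72 from a low level, 65 to 97 reads a vehicle library (limma adjusted p = 0.035, 0.051 with the replicate block, 0.082 and 0.13 without vehicle library 1 or 2, and 0.10 and 0.088 without UK5099 library 2 or 3). Glul, glutamine synthetase, was at 80.0, 87.1 and 86.3 CPM in vehicle, 86.4, 63.0 and 82.2 CPM with UK5099 and 87.0, 83.0 and 89.0 CPM in Mpc1-KO. The groups overlapped (-0.14, limma adjusted p = 0.32, or -0.23 and 0.064 without UK5099 library 1), UK5099 library 2 was the lowest of the 9, and 13.7% of its windows are shared, chiefly with Glns-ps1 (1.46 to 1.98 CPM).

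**Figure D3:**
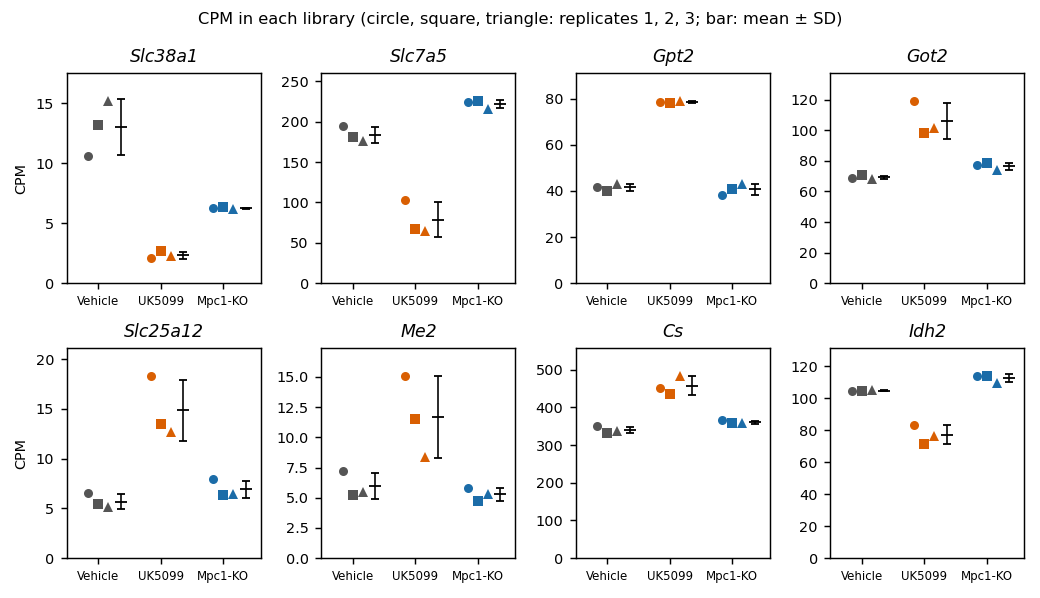
CPM in each library is plotted from 0 for 8 genes, with points for replicates 1, 2 and 3 and a bar for the group mean ± SD (n = 3). With UK5099, Gpt2, Got2, Slc25a12, Me2 and Cs lie above all vehicle libraries and Slc38a1, Slc7a5 and Idh2 below them. Mpc1-KO lies between the other groups for Slc38a1 and above both for Slc7a5.

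Among the 6 mitochondrial carriers, 2 rose, none fell and 4 did not pass (median 0.14). With 33.3% passing, where 38.1% of all genes did, the carriers as a class did not stand out. Slc25a12, the calcium-regulated aspartate-glutamate carrier of the malate-aspartate shuttle, was at 6.57, 5.40 and 5.10 CPM in vehicle, 18.4, 13.5 and 12.7 CPM with UK5099 and 7.94, 6.31 and 6.48 CPM in Mpc1-KO. It had the largest rise of the 39 genes, to 2.61 times the vehicle mean (1.30 ± 0.16, limma adjusted p = 0.00018), and its lowest UK5099 library was well above its highest vehicle library. Slc25a13, the other carrier of that kind, was at 69.0, 81.1 and 75.6 CPM in vehicle and 69.1, 96.9 and 93.4 CPM with UK5099 (0.19, limma adjusted p = 0.24). UK5099 library 1 was again unlike libraries 2 and 3, and without it Slc25a13 rose (0.34, limma adjusted p = 0.0012). Slc25a10, the dicarboxylate carrier, was at 31.1, 30.3 and 32.4 CPM in vehicle, 48.1, 40.5 and 32.9 CPM with UK5099 and 29.6, 29.2 and 29.0 CPM in Mpc1-KO. It rose by 0.35 ± 0.12 (limma adjusted p = 0.037), with library 3 barely above vehicle, and the call was lost on leaving out any 1 library other than UK5099 library 3 (adjusted p = 0.052 to 0.11). The log2 fold change was 0.22 without UK5099 library 1. The citrate carrier Slc25a1 (0.10, or 0.17 and limma adjusted p = 0.037 without UK5099 library 1), the oxoglutarate carrier Slc25a11 (0.00, or -0.08 without that library) and the glutamate carrier Slc25a22 (0.04, or -0.16 without it) did not pass with all libraries.

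Of Me2, Me3, Pck1 and Pck2, the first and the last were abundant enough to be tested. Me2, the NAD-linked malic enzyme of mitochondria that turns malate into pyruvate, was at 7.25, 5.26 and 5.44 CPM in vehicle, 15.1, 11.5 and 8.37 CPM with UK5099 and 5.81, 4.71 and 5.29 CPM in Mpc1-KO. It was higher in each UK5099 library, at 1.95 times the vehicle mean (0.88 ± 0.20, limma adjusted p = 0.0068), on 130 to 160 reads a vehicle library. Pck2, the mitochondrial carboxykinase that makes phosphoenolpyruvate from oxaloacetate, was at 86.3, 83.9 and 81.0 CPM in vehicle, 107, 49.7 and 69.1 CPM with UK5099 and 87.1, 89.1 and 86.2 CPM in Mpc1-KO. UK5099 library 1 was the highest of the 9 libraries and libraries 2 and 3 the lowest, and the gene did not pass (-0.22 ± 0.21, limma adjusted p = 0.44), whereas without library 1 it fell (-0.51, adjusted p = 0.0019). Me3, the mitochondrial NADP-linked malic enzyme, had 2 to 15 reads a library and a mean of 0.314 CPM. Pck1, the cytosolic carboxykinase of liver and kidney, had no read in any library, which allows up to 0.104 to 0.182 CPM by counting error alone.

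The height of the rise differed between libraries. UK5099 library 1 was the highest of its group for 31 of the 39 genes and for 18 of the 20 cycle genes, and vehicle library 1 was the highest of its own for 25 and 17. The median of the cycle genes lay 0.46 log2 units above the vehicle mean in UK5099 library 1 and 0.19 and 0.18 above it in libraries 2 and 3. For all genes those medians were 0.14, -0.01 and -0.02. Without UK5099 library 1, 19 of the 39 genes rose and 6 fell (medians 0.17 for all 39 and 0.17 for the cycle), where 21.2% and 24.6% of all genes did so, 45.8% together. The genes added as falls were Sdhd, Slc1a5 and Pck2.

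**Figure D4:**
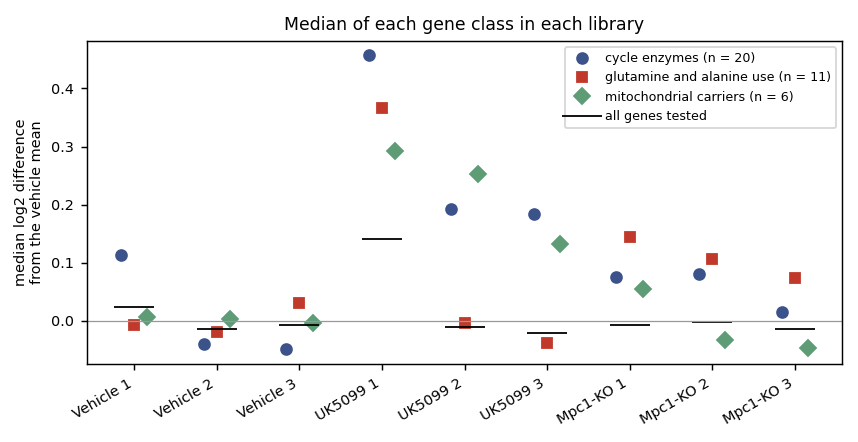
For each of the 9 libraries, points give the median log2 difference from the vehicle mean over the tested cycle genes (n = 20), the genes of glutamine and alanine use (n = 11) and the mitochondrial carriers (n = 6), and the black bar gives it over all 12396 genes tested. The cycle median is 0.46, 0.19 and 0.18 in UK5099 libraries 1, 2 and 3, each above the bar of its library.

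In Mpc1-KO, Slc38a1 was nearly 1 log2 unit below vehicle, and the other 38 genes lay between -0.22 and 0.30 log2 units from it. Of the 39, none rose, 1 fell and 38 did not pass by limma, where 5.64% of all genes rose and 5.03% fell (10.7% in either direction). At an unadjusted p below 0.05 there were 6, of which 4 were higher, where 27.5% of all genes passed and 13.8% were higher. The median was 0.07, beside -0.01 over all genes, and the libraries did not overlap for 11 genes higher and 6 lower, where 24.2% and 25.6% of all genes did so. All 20 cycle genes had a 95% interval within 1.5-fold of vehicle in either direction, as had 34 of the 39, the others being Gls2, Slc38a1, Slc7a5, Slc25a12 and Me2. Slc38a1 fell from 13.0 ± 2.32 to 6.25 ± 0.0552 CPM (-0.99 ± 0.15, limma adjusted p = 0.0047), the 3 Mpc1-KO libraries lying close together, and it passed in each of the 18 settings.

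The count of calls in Mpc1-KO turned on whether the more variable UK5099 libraries shared the estimate of the spread. The median SD of these genes among replicates was 0.20 log2 units in the UK5099 group, 0.09 among vehicle libraries and 0.04 in Mpc1-KO. When the fit held only the 6 vehicle and Mpc1-KO libraries, 9 of the 39 rose and 2 fell (28.2%), while 35.5% of all genes passed, 17.5% up and 18% down. The rises were Idh2, Idh3b, Idh3g, Suclg2, Fh1, Glud1, Got2, Slc7a5 and Slc25a13, by 0.11 to 0.30, and the falls Slc38a1 and Slc25a11. With all libraries but UK5099 library 1, 7 rose and 2 fell, where 14.1% and 14.9% of all genes did so, 29% together. Slc7a5 was above vehicle in each Mpc1-KO library (0.27 ± 0.14, limma adjusted p = 0.26 with all libraries and 0.00083 in the fit of 6). Slc25a13 (0.30 ± 0.12, adjusted p = 0.13, or 0.0023 in the fit of 6) and Fh1 (0.27 ± 0.10, adjusted p = 0.13, or 0.015) were likewise above vehicle in every library.

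Drug and deletion were compared directly, since both act on the same carrier. Against UK5099, Mpc1-KO had 6 of the 39 genes higher and 14 lower by limma, where 21.1% of all genes were higher and 23.2% lower (44.4% in either direction). Libraries did not overlap for 5 genes higher and 19 lower, where 25.2% and 29.8% of all genes did so. The median was -0.18, beside -0.05 over all genes. Slc7a5 differed most (1.53 ± 0.14, limma adjusted p = 3.9e-05), lying above vehicle in mean in Mpc1-KO and below it with UK5099. Slc38a1 was lower than vehicle with both and stood 1.26 log2 units higher in Mpc1-KO than with UK5099 (adjusted p = 0.00013). Gpt2 (-0.94), Slc25a12 (-1.04) and Me2 (-1.04) were lower in Mpc1-KO than with UK5099, with adjusted p of 4.4e-06, 0.00073 and 0.0027 by limma. In the cycle, 9 of 20 genes were lower in Mpc1-KO, among them Cs (-0.34), Idh1 (-0.64), Ogdh (-0.53), Sdhb (-0.46) and Mdh2 (-0.40), and 3 were higher: Idh2 (0.55, limma adjusted p = 9.6e-05), Idh3b (0.20, 0.047) and Sdhd (0.20, 0.025). Of the 20 differences, 14 passed in each of the 18 settings, and Idh3b, Sdhd, Ogdh, Dlst, Suclg1 and Mdh1 did not. The matching share over all called genes was not counted here either. Idh3b passed in 5 of the 18, with overlapping libraries, and Sdhd in 12. Without UK5099 library 1, Idh3b was lost (limma adjusted p = 0.066), and Ogdh went from -0.53 to -0.34, Dlst from -0.29 to -0.18, Suclg1 from -0.37 to -0.22 and Mdh1 from -0.29 to -0.18, all 4 still passing. Ogdh was lost without Mpc1-KO library 3 (adjusted p = 0.055), and the calls of Idh3b, Sdhd and Suclg1 without any 1 Mpc1-KO library. Dlst passed in 15 of the 18 settings and Mdh1 in 14, with limma adjusted p up to 0.066 and 0.094. Of the 9 fits that left out a library, Dlst passed in 6 and Mdh1 in 7.

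Genes next to these in the same pathways, a fixed list of 59 of which 58 were analysed and 48 tested, gave these counts: 12 rose and 4 fell with UK5099 (19.9% and 18.2% of all genes), and 2 rose and 1 fell in Mpc1-KO (5.64% and 5.03%), the rises being Pdp2 and Oat and the fall Mpc1. At pyruvate entry, 4 of 13 rose with UK5099 and none fell, with a median of 0.18. Pcx, the pyruvate carboxylase that makes oxaloacetate for the cycle, rose from 27.6 ± 2.72 to 78.2 ± 25.2 CPM (1.43 ± 0.21, limma adjusted p = 0.00052) and was at 39.7 ± 3.76 CPM in Mpc1-KO (0.52, adjusted p = 0.15). Pdp2, a phosphatase that activates pyruvate dehydrogenase, rose with both (0.56 and 0.34, adjusted p = 0.00031 and 0.023 by limma). Of the 7 genes of lipoylation and succinate dehydrogenase assembly, 2 rose and 1 fell with UK5099, among them the lipoyl synthase Lias (0.23) and the lipoyltransferase Lipt2 (-0.46). In the branch of branched-chain amino acids and propionyl-CoA, 3 of 7 rose, with Pcca, a subunit of propionyl-CoA carboxylase, at 0.76 and Bckdhb, of the branched-chain keto acid dehydrogenase, at 0.78.

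Of 5 other cycle and glutamine enzymes, none rose and 1 fell with UK5099. That was Me1, the cytosolic malic enzyme (-0.26, limma adjusted p = 0.021). In the proline, ornithine and GABA branches, 1 of 8 rose and 1 fell. Aldh4a1, which makes glutamate from the proline breakdown product, was at 0.44, and Oat, ornithine aminotransferase, fell with UK5099 (-0.16, limma adjusted p = 0.045) and rose in Mpc1-KO (0.33, adjusted p = 0.0070). Among 3 genes of aspartate use, the argininosuccinate synthase Ass1 fell with UK5099 (-0.59, limma adjusted p = 0.019) and asparagine synthetase Asns did not pass (0.66, adjusted p = 0.20). Of 3 further amino acid transporters tested, Slc7a11, the cystine-glutamate exchanger, rose from 118 ± 21.0 to 547 ± 247 CPM with UK5099 (2.13 ± 0.25, limma adjusted p = 0.00011). Slc3a2, the chain that Slc7a5 and Slc7a11 both pair with, did not pass (0.08, adjusted p = 0.57). Of the 2 other mitochondrial carriers tested, Ucp2 rose (0.51, limma adjusted p = 0.025) and the ornithine carrier Slc25a15 did not pass (0.18).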

How the data were processed

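RNA sequencing covered 9 libraries in 3 groups of 3, taken from the labels. Per the paper's methods and the submitters' processing notes, the libraries were stranded (KAPA mRNA kit) and read from 1 end. The authors mapped reads with STAR 2.7.9a to GRCm39, counted them by gene, normalized the counts in Partek Flow, and deposited CPM with 0.0001 added. The authors tested differences with DESeq2, and that test was not rerun. The 0.0001 was subtracted. Depth came from the value of 1 read, of which 99.90% to 99.94% of values below 1000 reads were whole multiples within 0.02.

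The 12396 genes that averaged 1 CPM or more were put on the scale log2(CPM + 0.5), and limma 3.58.1 (R 4.3.3) was run in 1 fit of all 9 libraries with a mean-variance trend (6 residual and 3.88 prior degrees of freedom), with p-values adjusted by Benjamini-Hochberg over all genes tested. A fold change on this scale understates the change of low genes. The test was checked only on simulated data with the same spread in all 3 groups. The spread of these libraries differed between groups, and the check does not cover that. Genes of a class were given in full when they passed without overlap of libraries, at most 6 a class by p, with Cs, Idh2, Sdha, Glul, Gpt2, Slc7a5 and Pck2 in any case, and neighbouring genes at most 2 a branch. The genes, lists and rules were chosen with earlier results of these data known. Alternatives were other pseudocounts (0.1 and 2), filters (none and 5 CPM), scalings, no trend, fits of 6 libraries, a replicate block and leaving out each library.

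Whether replicate numbers pair vehicle with UK5099 could be judged from the data alone, and they do not settle it. Deviations from the group mean of same-numbered libraries correlated at 0.44, 0.14 and 0.31 across genes. Differently numbered ones correlated at -0.43 to 0.26, UK5099 library 3 with vehicle library 2 at 0.26 and UK5099 library 2 with vehicle library 3 at 0.13, so that library 1 was set apart most. Same-numbered libraries of Mpc1-KO correlated at -0.04, -0.02 and 0.09 with vehicle and at -0.12, -0.08 and 0.12 with UK5099. Shared 50-base windows were counted in GENCODE M21 transcripts, of an earlier build.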

Additional observations from a re-analysis of the deposited data

How the results depend on the processing

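No call of the 39 genes turned direction in any setting run. For UK5099 against vehicle, the 19 rises became 10 in the fit of 6 libraries and 11 to 20 on leaving out a library, and the 3 falls became 5 with the replicate block in the fit of 6 libraries and 3 to 6 on leaving out a library. Without the filter on low genes 13 rose and 3 fell (41%), where 16.5% of all genes passed, since more genes entered the adjustment. The replicate block gave 20 rises and 4 falls (4922 genes in all, against 4721), adding Ogdh, Fh1 and Slc38a2 and losing Gls2. Without Mpc1-KO in the fit the block with 6 libraries, chosen after seeing the data, gave 20 rises, where 35.9% of all genes passed. Leaving out a library gave 3439 to 5683 genes in all.

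For Mpc1-KO against vehicle, 0 genes of the list rose and 1 fell. Rises numbered 2 with TMM rescaling (Suclg2 and Fh1), 1 with median-of-ratios rescaling (Suclg2), where 11.3% and 11.5% of all genes passed, 9 in the fit of 6 libraries, 8 with the replicate block in that fit, and 0 to 7 on leaving out a library. Falls numbered 2, 3 and 1 to 2 in the last 3 of these. Over all genes, 1323 passed, against 761 without the filter, 4399 in the fit of 6 libraries, 4146 with the block in that fit and 309 to 3593 on leaving out a library (309 without Mpc1-KO library 1, 318 without library 3, 480 without library 2, 599, 429 and 379 without vehicle libraries 1, 2 and 3, and 3593 without UK5099 library 1). With the replicate block in the fit of 9 libraries 1399 passed, and no call of the list changed.

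For Mpc1-KO against UK5099, the 6 higher and 14 lower genes became 4 to 8 and 10 to 17 on leaving out a library (4004 to 6205 of all genes, against 5498). The block added Slc1a5, Slc25a11 and Idh3a. Where a cause is not named it was not tested. A count test on reads recovered from the CPM, which had been planned, was not run. With 3 libraries a group, and 2 where a library was left out, values of low genes such as Gls2 and Gpt rest on few reads.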
